A study of Mus musculus with 6 samples.

Results

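Adhesion G protein-coupled receptors are the family of cell surface receptors to which Adgrg2 belongs, and 10 of its genes are described here: Adgrg1, Adgrg2, Adgrg6, Adgra2, Adgra3, Adgrl1, Adgrl2, Adgrl3, Adgrl4 and Adgre5. They are 10 of 30 family genes among the 54418 gene rows of the count table, and the remaining 20 are given for comparison. Adgrg2 was chosen for its measured difference between the genotypes in these same libraries, so its difference is a description and carries no test. The other members were listed by name, with results of these data known.

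RNA was sequenced from sorted mammary cells of 3 Glis2+/+ (WT) and 3 Glis2-/- (KO) C57BL/6 females at 4 weeks of age, and each library came from a single mouse. The KO is a germline deletion of Glis2, a zinc finger transcription factor, so every cell type of these mice lacks the intact gene. Cells from the dissociated glands had been stained for TER-119, CD31, CD45, CD24 and CD49f before sorting. Each library was made from 1 ng of total RNA with a stranded kit that depletes ribosomal fragments.

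An adhesion GPCR joins a long extracellular region, built from domains that bind matrix or neighbouring cells, to a bundle of membrane-spanning helices. Most members cut themselves at a conserved proteolysis site next to the membrane, and the short peptide that begins at the cut can act as a tethered agonist once the outer fragment is displaced. Adgrg2 is best known from the efferent ducts and epididymis, where it takes part in fluid reabsorption and male fertility, and it signals largely through stimulatory G proteins.

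Adgrg2 (ENSMUSG00000031298) lies at chrX:160390690-160498070 on the plus strand of GRCm38. The 250 bases before its RefSeq start (GRCm38.p6, chrX:160390440-160390689, plus strand) are shown because Adgrg2 is the gene on which the comparison turns, and those of Adgrl4 (chr3:151437632-151437881, plus strand) because Adgrl4 varied most between libraries among the 10 genes. Capitals mark the GC box GGGCGG on either strand, a site known to be bound by Sp factors.

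Adgrg2: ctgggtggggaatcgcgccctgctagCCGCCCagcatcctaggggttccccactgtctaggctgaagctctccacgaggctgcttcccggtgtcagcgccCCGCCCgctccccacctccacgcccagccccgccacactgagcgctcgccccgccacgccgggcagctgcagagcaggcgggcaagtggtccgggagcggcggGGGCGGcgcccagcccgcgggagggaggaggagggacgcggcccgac
Adgrl4: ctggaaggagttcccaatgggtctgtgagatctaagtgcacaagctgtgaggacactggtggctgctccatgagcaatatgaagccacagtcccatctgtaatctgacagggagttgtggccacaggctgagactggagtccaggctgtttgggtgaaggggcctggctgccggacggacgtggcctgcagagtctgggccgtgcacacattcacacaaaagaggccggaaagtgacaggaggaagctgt

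The Adgrg2 window was rich in G and C, with a GC content of 75.6%, 26 CpG dinucleotides and 3 GC boxes. The Adgrl4 window had a GC content of 56.8%, 5 CpG dinucleotides and 0 GC boxes. Over all 32851 RefSeq promoter windows of this length the median was 52.4% GC and 6 CpG, and 32.7% held a GC box. The family was matched to 26 such windows of 22 genes, of which 14 windows of 12 genes held one. The letters TGGGGGGT, a core sequence bound by GLIS proteins, were searched on both strands, and were found in 0 of the 26 windows and in 1.36% of all windows. A missing match says only that these letters are not in these 250 bases.

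Total counts lay between 24996524 and 31393917 per library. Glis2 itself was counted in every library, with 671, 663 and 510 counts in the WT and 252, 509 and 510 counts in the KO mice, and its normalized level was lower in all KO than in all WT libraries (log2 fold change -0.57 ± 0.22 SE). Per length Glis2 overlapped, at 29.7, 38.4 and 18.4 TPM in the WT and 30.6, 30.3 and 30.6 TPM in the KO mice, rescaled over protein-coding genes. The count therefore does not by itself mark the deletion, and the genotypes rest on the labels. Levels are given as CPM, counts scaled to a common library total after TMM normalization, unless they are said to be per length. All 10 basal and all 12 luminal epithelial marker genes were counted in every library, and so were all 10 endothelial and all 10 fibroblast markers. The summed basal markers, to which the smooth muscle genes Myh11 and Acta2 gave the most, were 5787, 5337 and 4460 CPM in the WT and 6365, 6080 and 7324 CPM in the KO mice. The sum was without overlap, and so were 2 of its 10 genes, Cnn1 and Oxtr, against 6.23% of all genes with the KO above. All 10 had a positive log2 fold change, with a median of 0.38. An unadjusted edgeR p under 0.05 with a higher level in the KO was found for 5 of the 10, against 2.99% of all genes. The summed luminal markers lay between 4228 and 7602 CPM and overlapped. The endothelial sum was 883, 192 and 679 CPM in the WT and 562, 268 and 892 CPM in the KO mice, and the fibroblast sum lay between 1309 and 3949 CPM. In bulk RNA, fewer cells of a type and less RNA per cell cannot be told apart.

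Adgrg2 had 333, 335 and 276 counts in the WT and 535, 536 and 713 counts in the KO libraries. Its normalized level was 10.8, 11.7 and 10.6 CPM in WT mice 1 to 3 and 21.4, 17.9 and 22.8 CPM in KO mice 1 to 3. The WT mice lay close together and every KO mouse lay above them. The means were 11.0 ± 0.605 CPM in the WT and 20.7 ± 2.52 CPM in the KO mice (SD, n = 3 each), a 1.87-fold higher level in the KO. The log2 fold change was 0.91 ± 0.17 (SE), with a 95% interval from 0.51 to 1.30, and is given without a test because it chose the gene.

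Per length the separation of Adgrg2 was smaller. Its TPM values, a measure of transcript abundance corrected for length and here rescaled so that the protein-coding genes alone make up the total of each library, were 5.92, 5.57 and 10.7 in the WT and 10.5, 13.6 and 11.1 in the KO mice. On this scale WT mouse 3 lay above KO mouse 1, so the groups overlapped, and the means were 7.40 ± 2.86 and 11.7 ± 1.61 (SD, n = 3 each). The ratio of the count share to the per-length level, which scales with the mean length of the transcripts to which reads were assigned, was lowest in WT mouse 3 at 47.0% of its value in WT mouse 2, and stood at 62.8% in KO mouse 2 and at 86.6% to 97.7% in the other libraries. With the deposited log2 TPM in limma the log2 fold change was 0.25 at an offset of 1, where Adgrg2 lay between 0.561 and 1.23 TPM, and 0.50 at an offset of 0.1.

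Of the 15 pairs of libraries, 14 had the same order for Adgrg2 as for the summed basal markers. Nothing is read from this number, since both were without overlap and Adgrg2 was chosen for that difference, so that all pairs of a WT and a KO library agree by construction. Divided by that sum, Adgrg2 was 1.86, 2.20 and 2.37 CPM per 1000 marker CPM in the WT and 3.36, 2.94 and 3.11 in the KO mice. Every KO ratio was above every WT ratio, and the means were 2.15 ± 0.259 and 3.14 ± 0.209 (SD, n = 3 each). All 9 lymphocyte markers that passed the filter also had a positive log2 fold change, and their sum was 13.2 to 22.1 CPM in the WT and 30.0 to 62.0 CPM in the KO mice. The part of either marker list in the Adgrg2 difference was not tested.

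**Figure D1:**
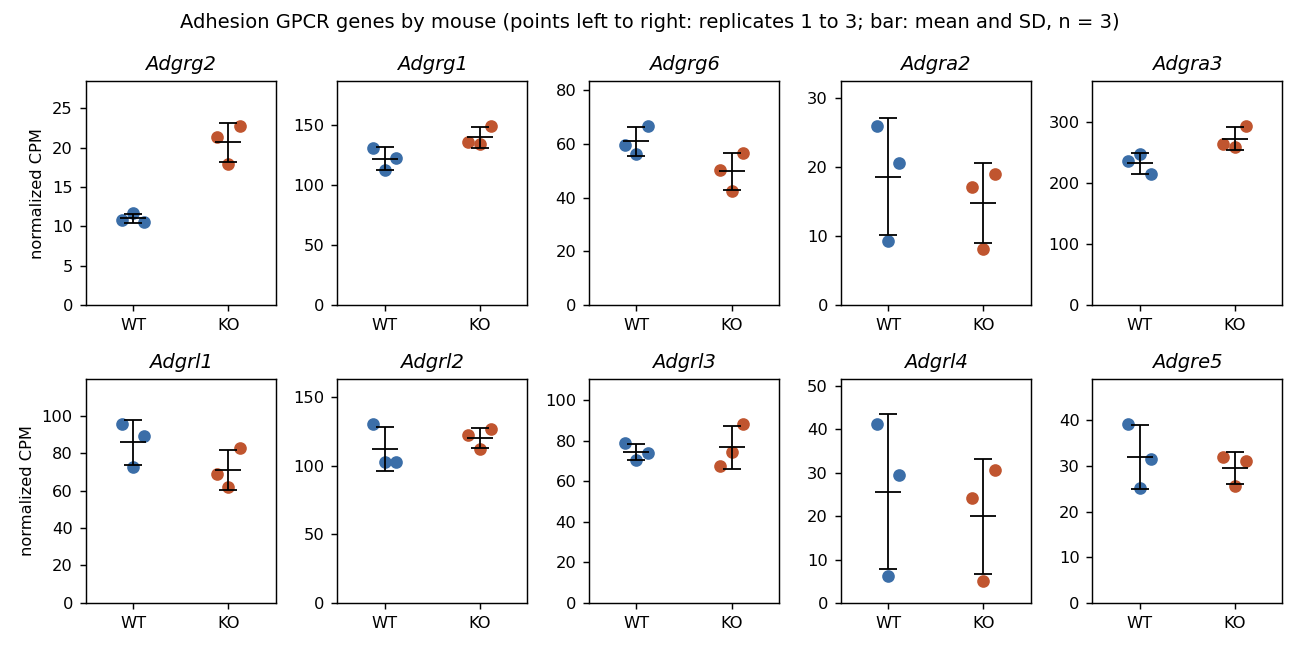
Normalized CPM of the 10 listed genes in each mouse (points, replicates 1 to 3 from left to right) by genotype, with the mean and SD of 3 mice as bars, on axes that start at 0. Adgrg2 lay at 10.6 to 11.7 CPM in the WT and 17.9 to 22.8 CPM in the KO mice, Adgra3 and Adgrg1 were also without overlap by smaller differences, and Adgrl4 and Adgra2 spread widely within both genotypes.

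The genes on both sides of Adgrg2 on the X chromosome did not separate by genotype. Pdha1, a subunit of pyruvate dehydrogenase, lay at 158 to 168 CPM in the WT and 166 to 187 CPM in the KO mice (log2 fold change 0.10 ± 0.09 SE). Phka2, a regulatory subunit of phosphorylase kinase, lay at 26.3 to 33.5 CPM in the WT and 31.4 to 42.5 CPM in the KO mice (0.27 ± 0.16). Map3k15, a kinase, had 4 to 55 counts per library, and Ppef1, a phosphatase, had at most 5 and was under the filter. Gm15241, annotated on the opposite strand inside Adgrg2, had 7 counts, all in KO mouse 1, equal to 0.257% of the Adgrg2 counts.

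Of 13739 protein-coding genes with a mean of at least 1 CPM, those nearest to Adgrg2 in their profile over the 6 libraries were Tenm2, Kcnmb1 and Pstpip1. The measure was the root mean square difference of log2 CPM after each gene's own mean was subtracted, and it was 0.13 for Tenm2, 0.13 for Kcnmb1 and 0.14 for Pstpip1, against a median of 0.52 over all these genes. Kcnmb1, a potassium channel subunit typical of contractile cells, was 10.1 to 12.9 CPM in the WT and 16.2 to 23.6 CPM in the KO mice. Pstpip1, a cytoskeletal adaptor typical of blood cells, was 2.20 to 2.84 CPM in the WT and 3.94 to 5.64 CPM in the KO mice. Since Adgrg2 was chosen for its difference, genes near it differ between the genotypes by construction.

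Among the other family genes the edgeR test called none. Of the 29 family genes other than Adgrg2, 22 passed the filter on low counts, all 9 other listed members among them, and 0 of 22 reached an adjusted p of 0.05 with a log2 fold change of at least 0.58 in size, as did 0 (0%) of all 21236 genes tested. The smallest adjusted p among the 22 was 0.906. An unadjusted p under 0.05 was found for 3 of the 22, against 5.32% of all genes. Adgra3 and Adgrf1 were the 2 with a higher level in the KO, a direction that held for 2.99% of all genes, and Adgre1 was the 1 with a lower level, against 2.33%. DESeq2 with apeglm shrinkage called 0 of the 22 as well, and 0.165% of all genes to which it gave an adjusted p.

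The log2 fold changes of the 22 genes were positive for 9 and negative for 13, with a median of -0.04 against 0.01 over all genes. The 9 other listed members were divided into 4 positive and 5 negative, from -0.37 for Adgrl4 to 0.23 for Adgra3, with a median of -0.11. No overlap between the genotypes was seen for 4 of 22 genes with the KO above, against 6.23% of all genes, and for 1 of 22 with the KO below, against 5.5%. These were Adgra3, Adgrg1, Adgrf1 and Celsr3 above and Adgra1 below. Adgrf1, Celsr3 and Adgra1 had at most 65, 50 and 20 counts in any library, so that a filter passed through the higher genotype alone favours such a pattern, and the counts over the 22 support nothing by themselves.

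**Figure D2:**
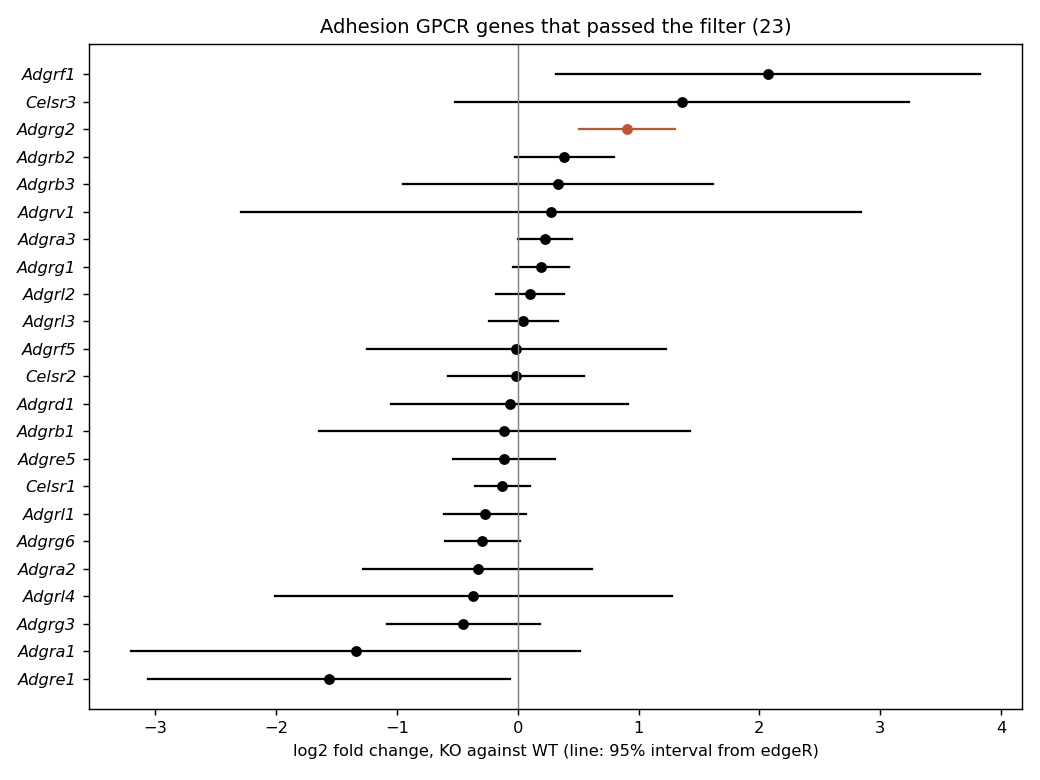
Log2 fold change of KO against WT with its 95% interval from edgeR for the 23 family genes that passed the filter, ordered by size, with Adgrg2 in orange as the gene chosen on this contrast. The 9 listed genes other than Adgrg2 lie between -0.37 and 0.23, and the widest intervals belong to genes with few counts or with a wide spread between mice.

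Adgra3 had the highest mean level of the family per length, though not the highest in every library. It is an orphan relative of the Wnt co-receptor Adgra2 and lies at chr5:49959956-50059006. Its level was 236, 249 and 215 CPM in the WT and 265, 260 and 294 CPM in the KO mice. Every KO mouse was above every WT mouse, by a log2 fold change of 0.23 ± 0.10 (SE, edgeR unadjusted p = 0.0466, adjusted p = 0.906), which did not pass the test. Adgra3 had the same order as the basal sum in 14 of 15 pairs of libraries and as the lymphocyte sum in 13, sums that were both without overlap between the genotypes, and per 1000 basal marker CPM it was 40.8 to 48.1 in the WT and 40.1 to 42.8 in the KO mice, where the groups overlapped.

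Adgrg1, a receptor for collagen III that couples to G12/13 proteins and RhoA, lies at chr8:94974751-95014217. It was at 131, 112 and 123 CPM in the WT and 136, 134 and 150 CPM in the KO mice. The genotypes did not overlap, but KO mouse 2 lay only slightly above WT mouse 1, and the log2 fold change was 0.19 ± 0.10 (SE, edgeR adjusted p = 0.919). Per length the order was not kept: the log2 fold change was -0.24 and -0.25 with the log2 TPM in limma at offsets of 1 and 0.1, and the ratio of count share to per-length level ranged down to 65.9% of its highest value. Its order matched the basal sum in 14 and the lymphocyte sum in 15 of 15 pairs. Nothing is read from these numbers, since Adgrg1 and both sums were without overlap, so that all pairs of a WT and a KO library agree. Divided by the basal sum the genotypes overlapped, at 21.1 to 27.6 in the WT and 20.4 to 22.1 in the KO mice.

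Adgrg6 is needed for myelination by Schwann cells and binds collagen IV and laminin-211. At chr10:14402583-14545659, it had 59.8, 56.4 and 66.8 CPM in the WT and 50.3, 42.6 and 56.6 CPM in the KO mice. WT mouse 2 lay just under KO mouse 3, so the groups overlapped at their edges, and the log2 fold change was -0.29 ± 0.14 (SE, edgeR unadjusted p = 0.0622, adjusted p = 0.906). The 2 genes annotated on its opposite strand held 61.1% as many counts as Adgrg6. The summed Schwann cell markers were 628 to 821 CPM in the WT and 613 to 723 CPM in the KO mice. Relative to the basal sum Adgrg6 was without overlap, at 10.3 to 15.0 CPM per 1000 marker CPM in the WT and 7.00 to 7.90 in the KO mice, a ratio whose denominator was itself higher in every KO mouse.

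**Figure D3:**
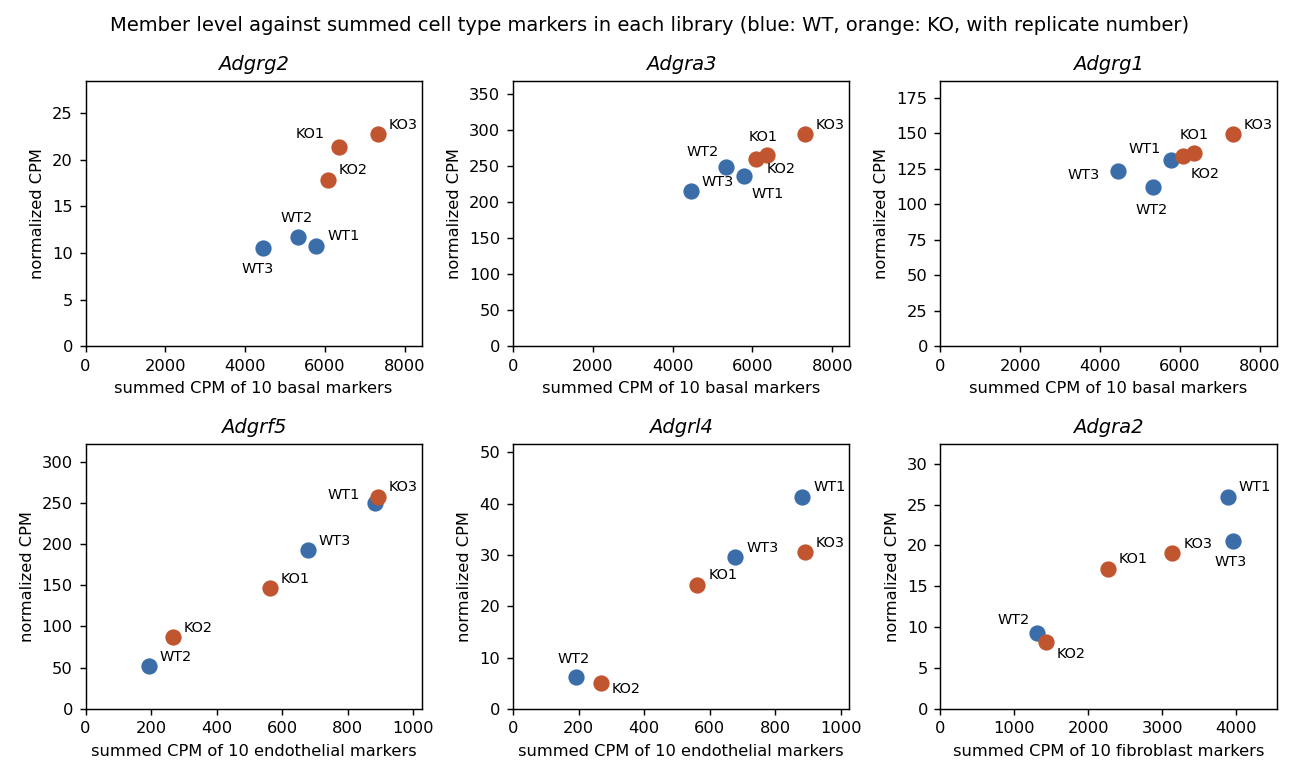
Normalized CPM of 6 adhesion GPCR genes (vertical axis) against the summed CPM of 10 basal, endothelial or fibroblast markers (horizontal axis) in each of 6 libraries, WT in blue and KO in orange. Every KO library has a higher basal sum and a higher Adgrg2 level than every WT library, Adgra3 and Adgrg1 follow the basal sum in 14 of 15 pairs of libraries (13 and 15 pairs for the lymphocyte sum, not drawn), and Adgrf5 orders the libraries exactly as the endothelial sum does.

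The latrophilins, Adgrl1 to Adgrl3, bind teneurins and FLRT proteins on neighbouring cells and are best known from synapses. Adgrl1 (chr8:83900105-83941954) was at 95.7, 72.6 and 89.0 CPM in the WT and 68.7, 61.8 and 82.5 CPM in the KO mice. Both lower values of the KO lay under all WT values and KO mouse 3 lay among them (log2 fold change -0.27 ± 0.15 SE, edgeR adjusted p = 0.920). Adgrl2 (chr3:148815583-148990555) was at 131, 103 and 102 CPM in the WT and 122, 112 and 126 CPM in the KO mice, which all lay inside the WT range (0.10 ± 0.12). Adgrl3 (chr5:81020138-81825133) was at 78.8, 70.8 and 73.8 CPM in the WT and 67.7, 74.6 and 88.6 CPM in the KO mice, where the KO range enclosed the WT range (0.05 ± 0.12, and -0.08 without KO mouse 3). Per 1000 basal marker CPM all of these were lower in every KO than in every WT mouse, with a denominator that was itself higher in the KO. Adgrl1 was 13.6 to 19.9 in the WT and 10.2 to 11.3 in the KO mice, Adgrl2 19.3 to 22.9 and 17.2 to 19.2, and Adgrl3 13.3 to 16.5 and 10.6 to 12.3.

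Adgrl4, an orphan receptor of the latrophilin group known from blood vessel endothelium, lies at chr3:151437887-151545086. It was at 41.4, 6.20 and 29.5 CPM in the WT and 24.2, 5.11 and 30.6 CPM in the KO mice. WT mouse 2 and KO mouse 2 were low and the other 4 mice were high, so that the spread lay within the genotypes, an 8.10-fold range in all. The log2 fold change was -0.37 ± 0.72 (SE, edgeR adjusted p = 0.977), and it was 0.15 without WT mouse 1, 0.09 without KO mouse 2 and -0.83 without WT mouse 2 or KO mouse 3. Per length Adgrl4 ranged from 9.83 to 130, highest in WT mouse 1, where the ratio of count share to per-length level was lowest, at 54.0% of its value in WT mouse 2. Its order of libraries matched the endothelial marker sum in 13 of 15 pairs, which 6.34% of the genes tested reached, the macrophage sum in 13 and the adipocyte sum in 14, which 2.6% reached. Of the adipocyte sum, at 186 to 414 CPM, the gene Fabp4 alone held 46.3 to 294 CPM, and only 5 of its 10 markers were counted in every library. Per 1000 endothelial marker CPM its range narrowed to 2.46-fold, from 19.1 to 46.8, and per 1000 fibroblast marker CPM to 2.98-fold, from 3.59 to 10.7.

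Adgrf5, no listed member but known from endothelium and the lung alveolus, showed the same low mice. It was at 250, 51.7 and 193 CPM in the WT and 147, 86.8 and 257 CPM in the KO mice (log2 fold change -0.01 ± 0.54 SE). All 15 pairs of libraries had the same order as the endothelial sum, which was so for 0.56% of the genes tested. Per 1000 endothelial marker CPM it lay between 261 and 324, a 1.24-fold range, while its CPM had a 4.98-fold range. The macrophage marker sum, at 26.8 to 60.1 CPM, ordered the 6 libraries in the same way, so that these orders do not tell both marker lists apart. CD31 and CD45, stained before the sort, are surface antigens of endothelial and blood cells, and whether the gate removed such cells fully was not tested.

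Adgra2, which with Reck forms the Wnt7 co-receptor of brain endothelium, lies at chr8:27085583-27123436. It was at 26.0, 9.31 and 20.6 CPM in the WT and 17.1, 8.18 and 19.0 CPM in the KO mice, again with mouse 2 lowest in each genotype (log2 fold change -0.33 ± 0.41 SE, edgeR adjusted p = 0.971). The log2 fold change was -0.03 without WT mouse 1, -0.05 without KO mouse 2, -0.65 without WT mouse 2 and -0.57 without KO mouse 3, and the ratio of count share to per-length level in WT mouse 2 was 50.4% of that in KO mouse 2. It had the order of the fibroblast marker sum in 13 of 15 pairs, which 5.03% of genes reached, of the adipocyte sum also in 13 and of the endothelial and macrophage sums in 12. Per 1000 fibroblast marker CPM it lay between 5.21 and 7.58, a 1.46-fold range against 3.17-fold in CPM. Brf2, which overlaps it on the opposite strand, held 32.1% as many counts.

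Adgre5, or CD97, is found on leukocytes and many epithelia and binds the complement regulator CD55. It lies at chr8:83723251-83741326, and was at 39.3, 25.2 and 31.4 CPM in the WT and 32.0, 25.6 and 31.0 CPM in the KO mice. The KO mice all lay inside the WT range, and the log2 fold change was -0.11 ± 0.19 (SE, edgeR adjusted p = 0.977) and 0.05 without WT mouse 1. Ddx39, on the opposite strand, held 121% as many counts as Adgre5. The counting setting for strand is not given in the sources used here, so that reads of such pairs may not be fully told apart.

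**Figure D4:**
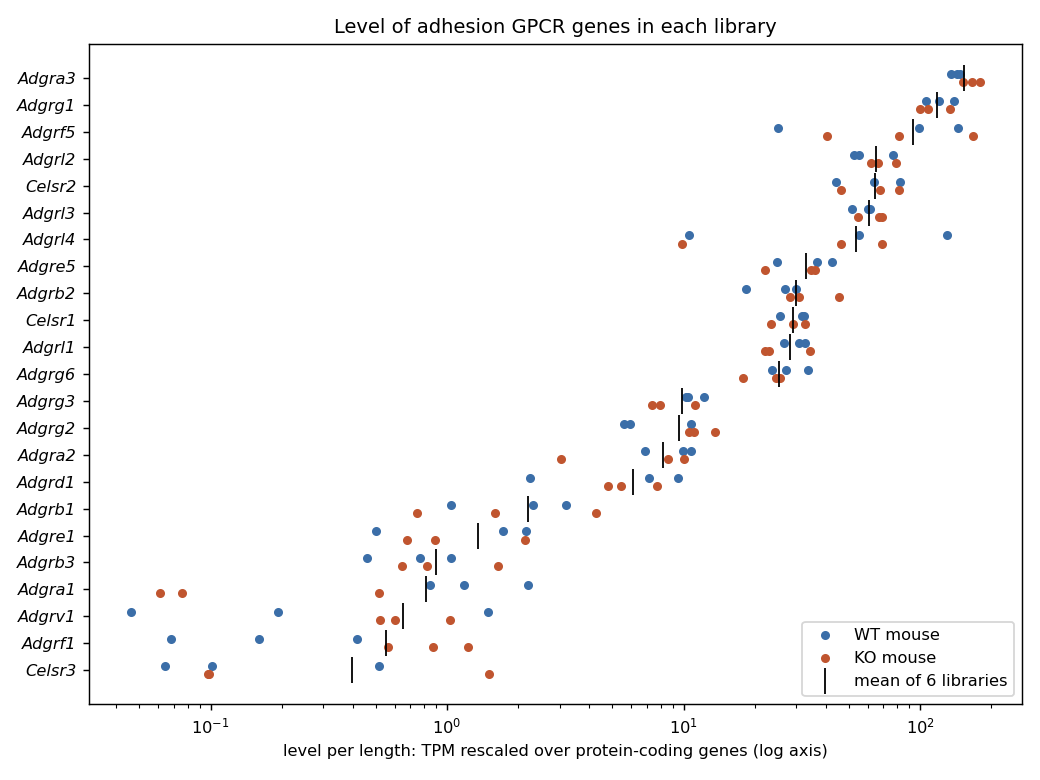
Level per length, as TPM rescaled over protein-coding genes on a log axis, of the 23 family genes that passed the filter, ordered by the mean of 6 libraries (tick), with each WT mouse in blue and each KO mouse in orange. The levels run from 154 for Adgra3 down to 0.396 for Celsr3, and Adgrg2 stands at 9.56, with 2 WT mice under and WT mouse 3 among the KO mice.

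Compared per length, the 10 listed genes held between 67.1% and 72.5% of the summed family level of a library. Over the 6 libraries the mean was 154 for Adgra3, 118 for Adgrg1, 65.4 for Adgrl2, 60.6 for Adgrl3, 53.5 for Adgrl4, 32.8 for Adgre5, 28.2 for Adgrl1, 25.4 for Adgrg6, 9.56 for Adgrg2 and 8.20 for Adgra2, all in TPM rescaled over protein-coding genes. Adgra3 made up between 16.2% and 22.6% of the summed family level of a library, and Adgrg2 between 0.652% and 2.03%, which placed it at rank 14 of 30 by the mean over both genotypes. Its place differed by genotype, since its mean was below that of Adgra2 in the WT (7.40 against 9.16) and above it in the KO mice (11.7 against 7.24). Of the neighbours in this order down to Adgra2, only Adgrg6 and the next gene, Adgrg3, were in the same order in 6 of 6 libraries. Adgra3 was above Adgrg1 in 5 of 6 libraries, and Adgrg2 was below Adgrg3 in 2 of 6 and above it in the others.

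The remaining family genes were less often counted, apart from Celsr1, Celsr2, Adgrb2 and Adgrf5. Celsr1 and Celsr2, cadherin-type receptors of planar cell polarity, were at 91.4 to 113 CPM and 150 to 279 CPM, and overlapped between the genotypes (log2 fold changes -0.13 ± 0.10 and -0.01 ± 0.25 SE). Adgrb2, of the brain angiogenesis inhibitor group, was at 35.2, 27.7 and 28.5 CPM in the WT and 35.1, 34.6 and 49.7 CPM in the KO mice (0.39 ± 0.18 SE, edgeR adjusted p = 0.906). Adgrd1, at 5.15 to 20.2 CPM, and Adgrg3, at 4.72 to 9.25 CPM, had log2 fold changes of -0.07 ± 0.43 and -0.45 ± 0.28 (SE). Rps16-ps2, on the opposite strand inside Adgrd1, held 352% as many counts as Adgrd1.

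Adgre1, the macrophage antigen F4/80, had 73, 20 and 79 counts in the WT and 24, 14 and 20 counts in the KO mice, where WT mouse 2 lay among the KO mice. Its log2 fold change was -1.56 ± 0.66 (SE, edgeR unadjusted p = 0.0431, adjusted p = 0.906), while 7 of the 9 macrophage markers tested had a positive one. Adgrf1, a receptor known from neurons, had 21, 8 and 3 counts in the WT and 24, 65 and 46 counts in the KO mice (2.07 ± 0.77 SE, edgeR unadjusted p = 0.0257, adjusted p = 0.906). Celsr3 was at 0.154 to 0.519 CPM in the WT and 0.520 to 1.60 CPM in the KO mice, and Adgra1 was at 0.422 to 0.648 CPM and 0.128 to 0.334 CPM. Adgrb1, Adgrb3 and Adgrv1 had at most 87, 113 and 47 counts in a library and overlapped. Adgre4, Adgrf2, Adgrf3, Adgrf4, Adgrg4, Adgrg5 and Adgrg7 were under the filter, with 0 to 43 counts in a library.

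The binding partners of these receptors were examined as a list of 32 genes, of which 25 passed the filter. The edgeR test called 0 of the 25, as of all genes (0%), and DESeq2 with apeglm called 1, Tenm2, against 0.165% of all genes. An unadjusted edgeR p under 0.05 was found for 2 of the 25, Tenm2 and Unc5a, both with a higher level in the KO. The share of all genes was 2.99% in that direction and 5.32% in either direction. Of the 25 log2 fold changes, 16 were positive and 9 negative, with a median of 0.13 against 0.01 over all genes. Tenm2, a teneurin that binds latrophilins, was at 13.7, 12.7 and 10.8 CPM in the WT and 21.3, 20.2 and 28.2 CPM in the KO mice, with every KO mouse above every WT mouse. Its log2 fold change was 0.91 ± 0.19 (SE), but Tenm2 is labelled in the study's heatmap of these libraries, so that it is not independent evidence. Per length Tenm2 overlapped, at 4.44, 23.2 and 9.20 in the WT and 13.3, 9.41 and 8.35 in the KO mice.

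Unc5a, a netrin receptor of the family that joins FLRT proteins and latrophilins in complexes, had 61, 23 and 48 counts in the WT and 122, 65 and 118 counts in the KO mice. The lowest KO mouse lay above the highest WT mouse once normalized, at 2.17 against 1.98 CPM, and the log2 fold change was 1.22 ± 0.49 (SE, edgeR unadjusted p = 0.0356, adjusted p = 0.906). Flrt3, a ligand of the latrophilins, had the third smallest p, and was at 15.5, 14.7 and 14.1 CPM in the WT and 11.6, 10.3 and 13.0 CPM in the KO mice. All KO values of Flrt3 lay under all WT values (-0.34 ± 0.18 SE, edgeR adjusted p = 0.919). Per length both genes overlapped: Unc5a was at 4.23, 0.462 and 7.68 in the WT and 12.2, 1.24 and 5.21 in the KO mice, and Flrt3 at 10.4, 8.90 and 8.89 in the WT and 7.30, 6.15 and 12.6 in the KO mice.

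**Figure D5:**
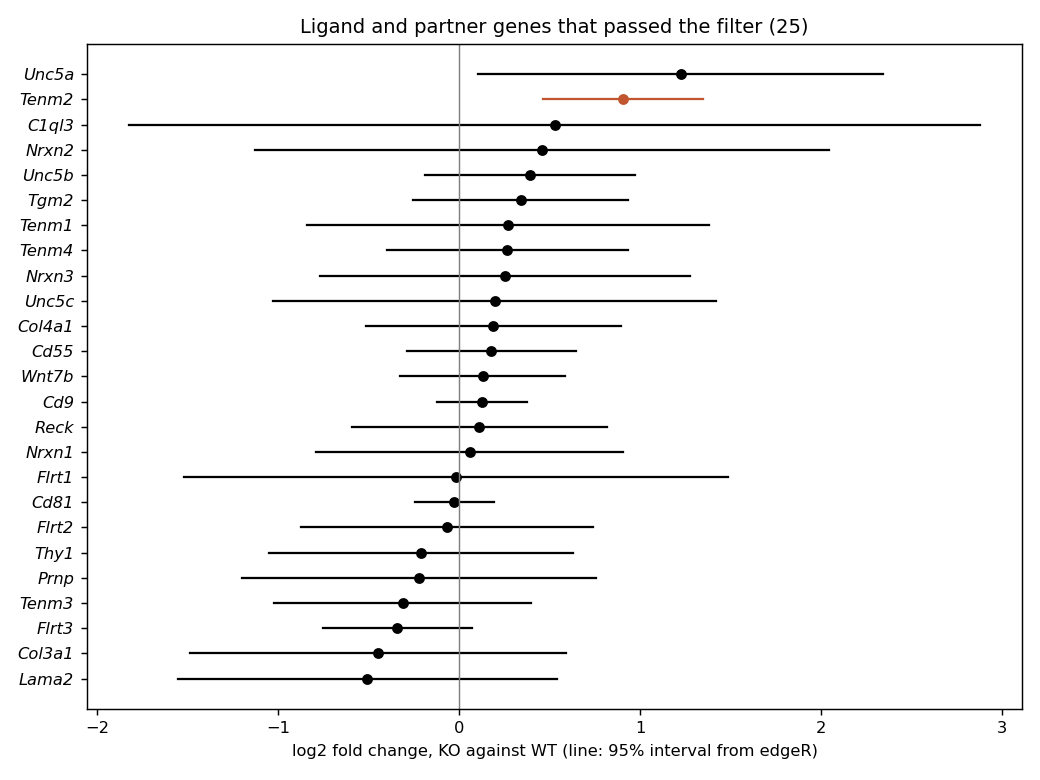
Log2 fold change of KO against WT with its 95% interval from edgeR for the 25 ligand and partner genes that passed the filter, ordered by size, with Tenm2 in orange as a gene labelled in the study's heatmap of these libraries. The interval lay above 0 for Unc5a and Tenm2 and included 0 for the other 23 genes.

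Of a list of 31 signalling genes, among them G proteins, adenylyl cyclases and arrestins, 30 passed the filter. The edgeR test and DESeq2 each called 0 of the 30, against 0% and 0.165% of all genes, and 15 log2 fold changes were positive and 15 negative, with a median of -0.01. An unadjusted edgeR p under 0.05 was found for 1 of the 30, against 5.32% of all genes. This was the adenylyl cyclase Adcy2, which had 42, 17 and 46 counts in the WT and 4, 10 and 9 counts in the KO mice. Every KO mouse was under every WT mouse, with a log2 fold change of -2.22 ± 0.73 (SE, edgeR unadjusted p = 0.0152, adjusted p = 0.906). Gnal, a stimulatory G protein subunit, was at 12.1, 17.7 and 17.9 CPM in the WT and 12.2, 12.3 and 8.47 CPM in the KO mice, which overlapped at the lowest WT mouse (-0.53 ± 0.24 SE). Gna12, a subunit that leads to RhoA, was at 60.5, 60.6 and 61.3 CPM in the WT and 66.5, 71.8 and 72.9 CPM in the KO mice, without overlap (0.21 ± 0.10 SE, edgeR adjusted p = 0.906).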

How the data were processed

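RNA-seq libraries of 3 WT and 3 KO mice were analysed, grouped by the labelled genotype. The authors estimated counts with Salmon 1.2.1 (per the labels) on an mm10 transcriptome with the genome as decoy and summed them per gene with tximport, and the deposited counts are whole numbers without normalization. The deposited log2 TPM had been computed by the authors after adding 1. Of 54418 identifiers, 54166 were matched to GENCODE M21 for symbols and positions.

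Counts were tested with edgeR 4.0.16 (R 4.3.3; filterByExpr, TMM, quasi-likelihood test) over 21236 genes, and a gene was called where its Benjamini-Hochberg adjusted p did not exceed 0.05 and its log2 fold change reached 0.58 in either direction. No block was fitted. The common biological coefficient of variation was 37.4%. TPM were recovered from the log2 values and rescaled over protein-coding genes, because Gm23935 held 83.0% to 85.7% of them. Alternatives were DESeq2 1.42.0 with apeglm 1.24.0, DESeq2 size factors, other filters (none, or 10 counts in every library), protein-coding genes, no fold threshold, limma 3.58.1 on log2 TPM, a replicate block and leaving out each library. The edgeR procedure was tested on simulated data. No library was a copy of another (chi-square per degree of freedom at least 20.5). In 3 against 3 mice an exact permutation test cannot go below p = 0.1.

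Named are the 10 members and the other family genes, list genes with an unadjusted p under 0.05 or the 3 smallest, the 4 coding neighbours of Adgrg2, the 3 genes nearest to it in profile, and Glis2. Members, lists and marker lists were chosen with earlier results of these data known, and the ratios to marker sums after these values were seen. Adgrd2 was not analysed here. Protein sequences were not used here.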

Additional observations from a re-analysis of the deposited data

How the results depend on the processing

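The count of genes called was 0 over all 21236 genes in edgeR and moved to 45 with DESeq2 and apeglm, to 40 without a filter on low counts and to 1 with log2(TPM + 0.1) in limma. In the ligand and partner list DESeq2 called 1 gene against 0. No alternative called a family gene other than Adgrg2 or a signalling gene. The log2 fold change of Adgrg2 was 0.91, lay between 0.81 and 0.99 when 1 library was left out, and was 0.25 and 0.50 with log2 TPM at offsets of 1 and 0.1. The number of other family genes without overlap was 5. When 1 library was left out it was 5 to 10, where 2 against 3 mice separate more easily. It was 8 without WT mouse 1 (23.5% of all genes), 10 without WT mouse 2 (23.3%) and 8 without KO mouse 3 (24.1%). The filter on low counts was applied again each time, so these family genes need not be among the 22. The shares are over the 21236 genes. The sign turned for Adgrg1 with log2 TPM (-0.24 and -0.25), for Adgrl3 with log2 TPM (-0.022 and -0.024) and without KO mouse 3 (-0.081, range to 0.13), for Adgrl4 without WT mouse 1 (0.15) or KO mouse 2 (0.09, range from -0.83), and for Adgre5 without WT mouse 1 (0.045, range from -0.257), where the ranges are over the left-out libraries. The other 5 of 9 members kept their sign. The cause of these turns was not tested. With log2 TPM the median of all genes shifted to -0.064 at an offset of 1 and to -0.14 at 0.1, and relative to these medians Adgrl3 stayed positive.

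Replicate numbers are shared by the genotypes but do not pair the mice: the correlations of deviations from the group means were -0.02, 0.17 and 0.02. With a replicate block the log2 fold change of Adgrg2 was 0.90 and 0 genes were called. Adgrg2 rests on 276 to 713 counts per library, and genes with few counts, such as Adgrv1 and Adgrf1, have wide intervals.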

Other observations

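Several family genes lie next to each other in the genome, and their values are given side by side. Adgrg5, Adgrg1 and Adgrg3 follow one another at chr8:94923694-94943280, chr8:94974751-95014217 and chr8:95017692-95045250 on the plus strand. Adgrg1 was abundant, at 112 to 150 CPM, and Adgrg3, a receptor of granulocytes and lymphatic endothelium, was at 7.58, 5.50 and 9.25 CPM in the WT and 4.72, 5.81 and 5.82 CPM in the KO mice. Adgrg5, known from lymphocytes, had 4, 2 and 0 counts in the WT and 15, 43 and 1 counts in the KO mice, so that its KO counts came almost wholly from mice 1 and 2. On chromosome 17, Adgrf5 at chr17:43360451-43459557 was high in the mice with a high endothelial sum, while Adgrf1 at chr17:43270329-43324737 and Adgrf2 and Adgrf4 nearby stayed at 65 counts or fewer in every library.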
